A study of Mus musculus with 6 samples.

Results

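Cytochrome P450 genes were followed in the RNA-Seq data of inguinal white adipose tissue (iWAT) from *Hlx* transgenic (TG) and wild-type (WT) mice. Members were all rows of the gene table with a symbol made of Cyp and a number, and *Cyp51* was left out. The rule found 101 of 19445 rows in 39 subfamilies, and 21 rows in 16 subfamilies had a mean over 1 FPKM in at least 1 genotype and were tested. FPKM counts sequenced fragments per length of transcript, scaled to the size of the library, so levels of different genes can be compared on it. Each group held 3 mice of 12 weeks, labelled as males, with 1 library per mouse. TG mice carried a full-length *Hlx* cDNA behind the *aP2* (*Fabp4*) promoter, which is active in adipocytes, and WT mice were littermate controls without it. The founders were C57BL/6 × SJL hybrids and the line was backcrossed to C57BL/6. Whether the TG mice came from 1 transgenic line is not given in the sources used here.

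P450 enzymes are heme proteins that put an oxygen atom into small hydrophobic molecules. Most sit in the endoplasmic reticulum and receive electrons from P450 oxidoreductase (*Por*), while a few sit in mitochondria and receive them from ferredoxin and ferredoxin reductase. The family clears drugs and toxins in the liver, hydroxylates fatty acids, turns arachidonic acid into signalling lipids, and makes or breaks down steroids, bile acids, vitamin D and retinoic acid. Many of the genes are read in 1 or a few tissues, and fat is known for a modest set.

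*Hlx* was at 79.6, 99.5 and 110 FPKM in the TG mice and between 6.88 and 8.14 FPKM in the WT mice, in the direction the labels give. *Xist*, a transcript of the inactive X chromosome of females, lay between 20.2 and 33.6 FPKM in all 6 libraries, and the 28 loci on the Y chromosome were at 0 in all of them, which goes against the male label. The FPKM of a library summed to between 466059 and 542096. The table holds no read counts, but steps between values under 0.3 FPKM gave a depth relative to WT replicate 3 of 0.714, 1.14 and 0.693 in TG replicates 1 to 3 and of 0.943 and 1.41 in WT replicates 1 and 2. Low values therefore rest on the fewest reads in TG replicates 1 and 3, and the absolute depth is unknown. Among the markers of the labelled tissue, *Adipoq* was at 1279 FPKM or more and *Fabp4* at 19297 FPKM or more in every library. In whole tissue, fewer cells of a type and less RNA per cell cannot be told apart.

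The P450 family moved in both directions. *Cyp4v3*, *Cyp2d22*, *Cyp2u1* and *Cyp1a1* were higher in TG iWAT, and *Cyp2f2*, *Cyp2j9*, *Cyp4f18*, *Cyp4f16* and *Cyp20a1* were lower, at an adjusted p under 0.05 (limma on log2(FPKM + 1), adjusted over 11692 rows, n = 3 mice per genotype). The remaining 12 of the 21 rows tested passed in neither direction. The 4 higher rows were 19% of those tested, where 11.6% of all tested rows were higher. *Cyp1a1* passed the filter only through its TG mice, and with a filter on the mean of all 6 mice it was not tested and 3 rows were higher. The 5 lower rows were 23.8%, where 7.03% of all tested rows were lower. The genotypes did not overlap at 12 of the 21 rows, or 57.1%, against 42.9% of all tested rows, with 6 rows on each side. The median log2 fold change was 0.03 over the 21 rows and -0.01 over all rows tested. The calls thinned when mice were left out. Without TG replicates 1, 2 and 3 in turn, 3, 4 and 2 rows were higher and 2, 4 and 2 were lower, and without WT replicates 1, 2 and 3, 2, 2 and 2 were higher and 1, 4 and 1 were lower. *Cyp4v3*, *Cyp2d22* and *Cyp2f2* kept their call without any single mouse.

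**Figure D1:**
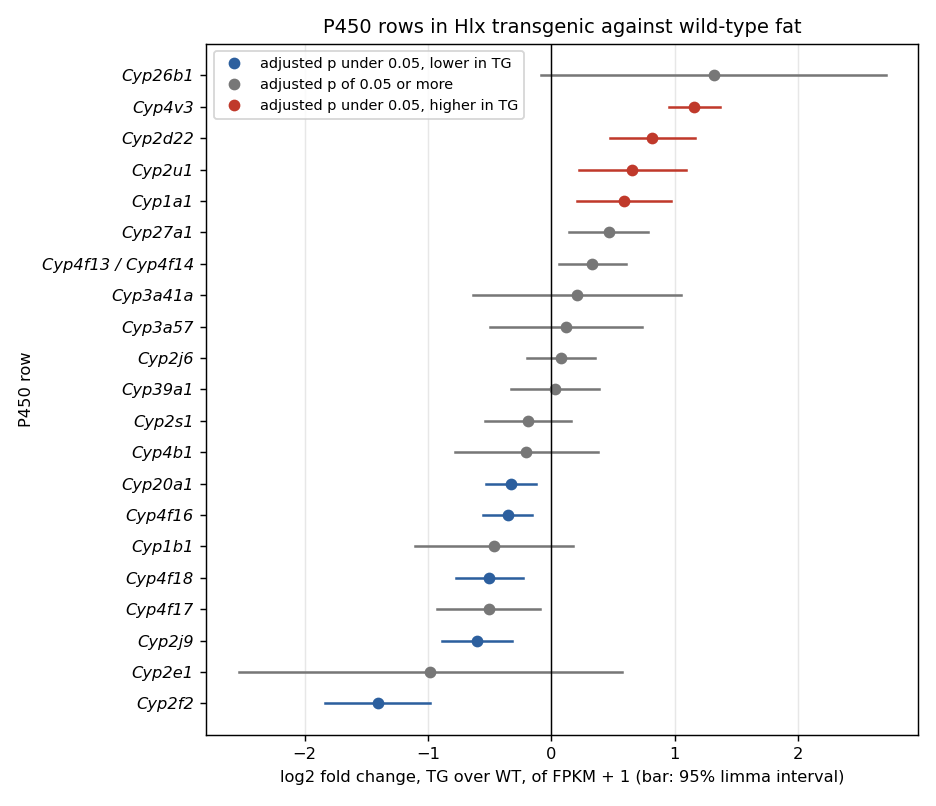
Log2 fold change of FPKM + 1, TG over WT, for the 21 P450 rows tested, ordered by size, with 95% limma intervals (n = 3 mice per genotype). Red points were higher and blue points lower at an adjusted p under 0.05. *Cyp4v3* at 1.16 and *Cyp2f2* at -1.41 were the most extreme of the called rows, and the long bars of *Cyp2e1* and *Cyp26b1* show the spread between mice.

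In WT iWAT the P450 row with the highest level was *Cyp2e1*, with a mean of 1079 FPKM, followed by the *Cyp3a41a* row at 387, *Cyp2f2* at 112, *Cyp4b1* at 34.7 and *Cyp4v3* at 31.8 FPKM. In TG iWAT the order was *Cyp2e1* at 570, *Cyp3a41a* at 413, *Cyp4v3* at 72.3, *Cyp2f2* at 41.3 and *Cyp27a1* at 31.0 FPKM. The order of *Cyp4v3* and *Cyp2f2* relative to each other was thus reversed, each with no overlap between the genotypes. The groups overlapped for *Cyp2e1*, *Cyp3a41a* and *Cyp4b1*. With the *Cyp3a41a* row left out, *Cyp2e1* alone made up 42.0%, 78.2% and 65.5% of the summed P450 FPKM in TG replicates 1, 2 and 3 and 84.8%, 64.8% and 75.5% in WT replicates 1, 2 and 3. With *Cyp2e1* left out as well, the sum lay between 274 and 282 FPKM in the TG mice and between 258 and 328 FPKM in the WT mice, so the genotypes overlapped.

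**Figure D2:**
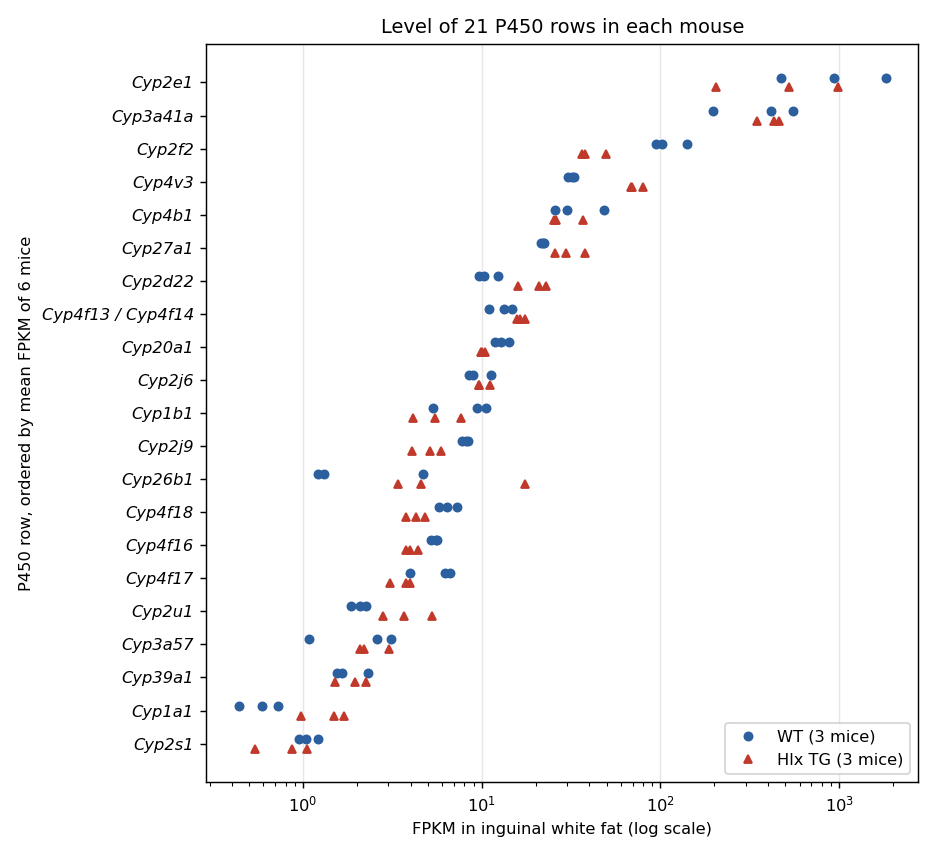
FPKM of the 21 P450 rows tested in each mouse, on a log scale, with blue circles for the 3 WT mice and red triangles for the 3 TG mice, ordered by the mean of 6 mice. The rows span from *Cyp2s1*, near 1 FPKM, to *Cyp2e1*, which reached 1831 FPKM in WT replicate 1.

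Among the fatty acid hydroxylases, *Cyp4v3*, the mouse counterpart of human CYP4V2, which hydroxylates fatty acids at their far (omega) end, was at 79.5, 68.4 and 69.0 FPKM in TG replicates 1, 2 and 3 and at 32.0, 33.0 and 30.4 FPKM in WT replicates 1, 2 and 3. Every TG mouse lay above every WT mouse by a wide margin. The log2 fold change was 1.16 (standard error, SE, 0.09 with a limma adjusted p = 0.000665), a 2.27-fold ratio of the means, and it stayed between 1.09 and 1.20 without any single mouse. *Cyp2u1*, a long-chain fatty acid hydroxylase, was at 5.30, 2.81 and 3.66 FPKM in the TG mice and at 2.25, 2.09 and 1.85 FPKM in the WT mice. Its groups did not overlap, and TG replicate 1 stood highest. The log2 fold change was 0.66 (SE 0.18, limma adjusted p = 0.0492). This call was lost without each mouse in turn except TG replicate 2, with an adjusted p of up to 0.141. *Cyp4b1*, known for hydroxylating fatty acids and activating toxins in lung, had 29.4 ± 6.39 FPKM in TG and 34.7 ± 12.1 FPKM in WT iWAT (SD, n = 3 each) with overlapping groups. It was at 25.9, 36.7 and 25.5 FPKM in TG replicates 1, 2 and 3 and at 29.9, 25.7 and 48.5 FPKM in WT replicates 1, 2 and 3. Its log2 fold change was -0.20 (95% interval -0.78 to 0.38, limma adjusted p = 0.587) and 0.06 without WT replicate 3. The *Cyp4v3* row, on chromosome 8 of mm10 from 45305802 to 45333559, shares bases with an annotated gene of the same strand (*Gm45753*), and that of *Cyp2u1* with an antisense gene (*4930534D22Rik*). Among the other called rows, *Cyp4f18* shares bases with *Zfp961* on the opposite strand, and *Cyp20a1* holds *6030460B20Rik* on its own strand. Whether strand was used in the quantification is not given in the sources used here, so reads of such neighbours cannot be told apart.

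The Cyp4f enzymes, which hydroxylate leukotrienes and other eicosanoids and fatty acids at the omega end, gave 4 tested rows. *Cyp4f18*, which breaks down leukotriene B4 in mouse leukocytes, was at 3.77, 4.84 and 4.26 FPKM in TG replicates 1, 2 and 3 and at 6.39, 5.78 and 7.30 FPKM in WT replicates 1, 2 and 3. All TG mice were below all WT mice, with a log2 fold change of -0.50 (SE 0.11, limma adjusted p = 0.0265). *Cyp4f16* was at 3.97, 4.37 and 3.79 FPKM against 5.54, 5.20 and 5.59 FPKM, again without overlap, and fell by 0.35 on the log2 scale (SE 0.08, limma adjusted p = 0.0303). Both calls depended on single mice. *Cyp4f18* was called without TG replicate 2 or WT replicate 2 and lost without each of the others (adjusted p up to 0.0847). *Cyp4f16* was called without TG replicate 2 and lost without each of the others (adjusted p up to 0.0963). Macrophage markers moved the same way as *Cyp4f18*. Of 7 markers, 6 had a row and 4 of these were lower and none was higher (7.03% and 11.6% of all tested rows), and their summed level was 350 to 496 FPKM in TG and 739 to 944 FPKM in WT iWAT. Of 6 lymphocyte markers, 1 was lower and none was higher, against the same shares of all rows, with sums of 269 to 357 FPKM and 360 to 523 FPKM. The largest row in these sums is shared by *Cd79a* and *Arhgef1*, at 139 to 169 FPKM in TG and 166 to 233 FPKM in WT iWAT. The part of macrophages and lymphocytes in the result was not tested.

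On chromosome 17, *Cyp4f17* and *Cyp4f16* lie next to each other on the plus strand. *Cyp4f14* and *Cyp4f13*, which share 1 row of the table, lie on the minus strand beyond *Cyp4f40* and *Cyp4f15*, both under the filter. *Cyp4f17* was at 3.77, 3.06 and 3.98 FPKM in the TG mice and 6.67, 3.99 and 6.27 FPKM in the WT mice. The highest TG value nearly met the lowest WT value, and the log2 fold change was -0.51 (limma adjusted p = 0.0878). Without WT replicate 2 its adjusted p was 0.0227. The shared row of *Cyp4f13* and *Cyp4f14* was at 17.6, 15.7 and 16.5 FPKM in TG and 14.8, 13.4 and 10.9 FPKM in WT iWAT, a log2 fold change of 0.33 (limma adjusted p = 0.0848). Its sign was opposite to those of *Cyp4f16* and *Cyp4f17*, without passing the test, and the difference between the rows was not tested. Summed over the 8 Cyp4f rows of the table, the level was 28.5 to 29.7 FPKM in TG and 28.8 to 34.0 FPKM in WT iWAT, with overlapping groups. Reads of such close paralogs can be split between rows, which makes each single value less certain.

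The Cyp2j enzymes turn arachidonic acid into epoxides and related products. *Cyp2j9* was at 5.91, 5.11 and 4.09 FPKM in TG replicates 1, 2 and 3 and at 8.15, 7.76 and 8.39 FPKM in WT replicates 1, 2 and 3. The WT mice lay close together and above all TG mice. The log2 fold change was -0.60 (SE 0.12, limma adjusted p = 0.0170), and the call was lost without WT replicate 1 or WT replicate 3 (adjusted p up to 0.0624). Its neighbour on chromosome 4, *Cyp2j6*, had 10.2 ± 0.824 FPKM in TG and 9.61 ± 1.52 FPKM in WT iWAT (SD, n = 3 each), with overlapping groups and a log2 fold change of 0.08 (95% interval -0.20 to 0.36, limma adjusted p = 0.664). The other 5 Cyp2j rows stayed under the filter, 3 of them at 0 in all mice.

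The xenobiotic enzymes of the CYP1 group are the classical targets of the aryl hydrocarbon receptor, a ligand-activated transcription factor. *Cyp1a1* was low throughout, at 0.973, 1.71 and 1.50 FPKM in TG replicates 1, 2 and 3 and at 0.721, 0.437 and 0.587 FPKM in WT replicates 1, 2 and 3. All TG mice were above all WT mice, with a log2 fold change of 0.59 (SE 0.16, limma adjusted p = 0.0460), a 2.39-fold ratio of the means. The pseudocount of 1 holds the change of so low a gene down, and with a pseudocount of 0.1 the log2 fold change was 1.12. The row passed the filter only through its TG mean of 1.39 FPKM, and it stayed called without TG replicate 1 but not without any of the other 5 mice (adjusted p up to 0.128). *Cyp1a2* was at 0 in all mice. *Cyp1b1*, which also hydroxylates estrogens, did not follow *Cyp1a1*. It had 5.78 ± 1.79 FPKM in TG and 8.45 ± 2.79 FPKM in WT iWAT (SD, n = 3 each), with overlapping groups and a log2 fold change of -0.47 (limma adjusted p = 0.260).

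*Cyp2f2*, known for activating naphthalene in mouse airway cells, had the largest fall among the called P450 rows. It was at 36.5, 49.5 and 38.0 FPKM in TG replicates 1, 2 and 3 and at 140, 94.1 and 101 FPKM in WT replicates 1, 2 and 3. The highest TG value was well below the lowest WT value. The log2 fold change was -1.41 (SE 0.18, limma adjusted p = 0.00338), a 0.369-fold ratio, and it stayed between -1.54 and -1.23 without any single mouse. The locus, on chromosome 7 from 27119955 to 27133660, holds an antisense gene (*Gm15883*). The other rows of that stretch of chromosome 7, of the Cyp2a, Cyp2b, Cyp2g, Cyp2s and Cyp2t subfamilies, were under the filter apart from *Cyp2s1*, which had 0.819 ± 0.257 FPKM in TG and 1.06 ± 0.130 FPKM in WT iWAT (SD, n = 3 each, limma adjusted p = 0.389).

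*Cyp2d22*, the Cyp2d enzyme often set beside the human drug-metabolizing CYP2D6, was at 22.9, 16.1 and 20.8 FPKM in the TG mice and at 12.4, 10.4 and 9.67 FPKM in the WT mice. No TG value came down to a WT value, and the log2 fold change was 0.82 (SE 0.15, limma adjusted p = 0.0112). It was the only one of 10 Cyp2d rows past the filter, and 8 of them were at 0 in all mice. *Cyp2e1*, the enzyme of ethanol and acetone oxidation, varied widely among mice of 1 genotype. It was at 205, 981 and 523 FPKM in TG replicates 1, 2 and 3 and at 1831, 474 and 933 FPKM in WT replicates 1, 2 and 3. The groups overlapped, since TG replicate 2 was above WT replicates 2 and 3, and the log2 fold change was -0.98 (95% interval -2.53 to 0.57, limma adjusted p = 0.319). It ranged from -1.51 to -0.38 as each mouse was left out.

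*Cyp3a41a* is listed on 2 rows with 1 and the same locus, on chromosome 5 from 145623185 to 145766806. The first was at 462, 430 and 348 FPKM in TG replicates 1, 2 and 3 and at 549, 416 and 196 FPKM in WT replicates 1, 2 and 3, and the other was at 0 in all mice. The locus reaches beyond the annotated *Cyp3a41a* gene (145694049 to 145720136) over the pseudogenes *Cyp3a63-ps* and *Gm43626* and into *Selenok-ps7*, a processed pseudogene of selenoprotein K. The selenoprotein K row itself (*Selk*) was at 29.6 to 34.2 FPKM. Which of these transcripts the high values belong to was not tested, so they are given as those of the row and not of the enzyme. The groups overlapped and the log2 fold change was 0.21 (limma adjusted p = 0.704), with a sign that turned with quantile normalization (-0.13) and without WT replicate 3 (-0.22). *Cyp3a57* had 2.44 ± 0.526 FPKM in TG and 2.27 ± 1.06 FPKM in WT iWAT (SD, n = 3 each, limma adjusted p = 0.765). The other 7 Cyp3a rows besides *Cyp3a13* were at 0 in all mice, counting the empty *Cyp3a41a* row.

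**Figure D3:**
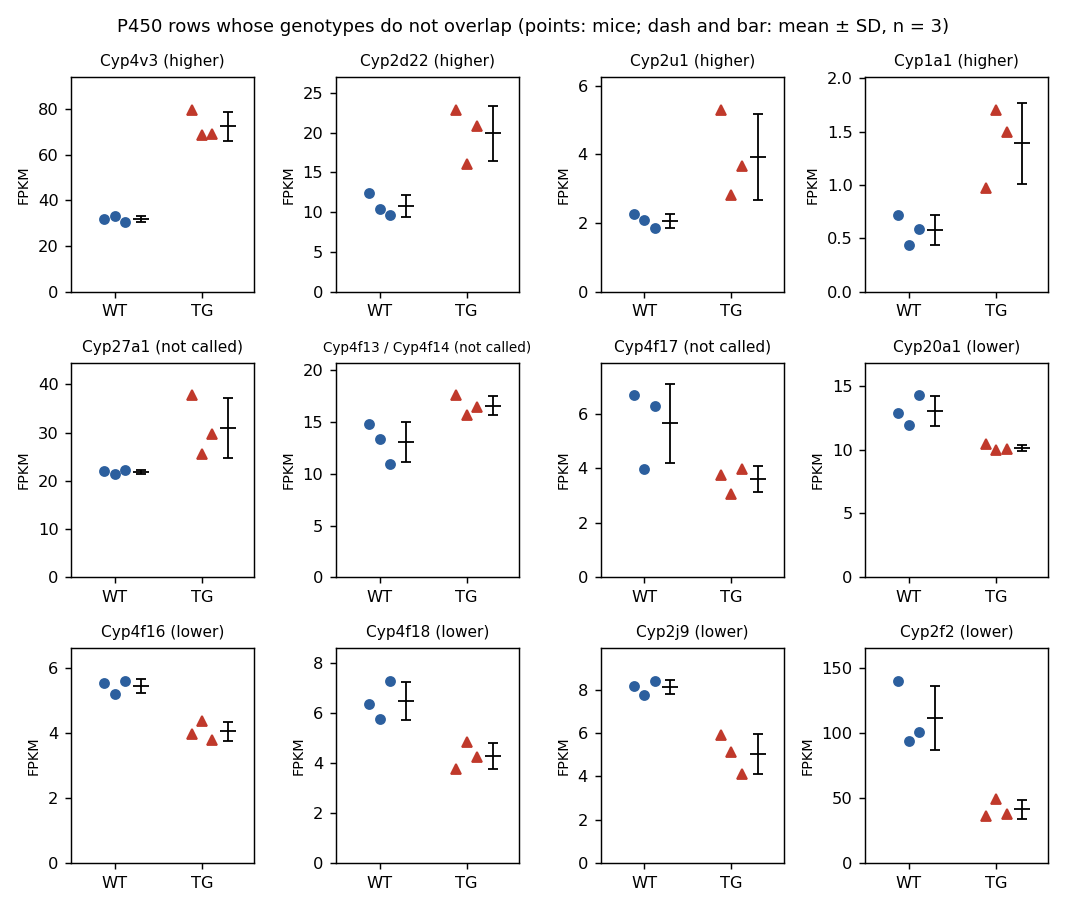
FPKM in each mouse for the 12 P450 rows whose genotypes did not overlap, with WT as blue circles, TG as red triangles and the mean ± SD (n = 3 mice) beside them. The upper row shows the 4 called higher, the next row 3 not called and *Cyp20a1*, and the bottom row 4 called lower, from *Cyp4f16* to *Cyp2f2*.

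Of the sterol enzymes, *Cyp27a1*, the mitochondrial sterol 27-hydroxylase, was at 37.7, 25.5 and 29.7 FPKM in TG replicates 1, 2 and 3 and at 22.1, 21.4 and 22.2 FPKM in WT replicates 1, 2 and 3. The WT mice were nearly equal and all below the TG mice. The log2 fold change was 0.47 (SE 0.14), and the adjusted p of 0.0554 (limma) missed the threshold. Without TG replicate 2 it was 0.0234. *Cyp39a1*, which hydroxylates 24-hydroxycholesterol, had 1.90 ± 0.370 FPKM in TG and 1.83 ± 0.403 FPKM in WT iWAT (SD, n = 3 each, limma adjusted p = 0.894). *Cyp46a1*, the cholesterol 24-hydroxylase of neurons, was the row closest under the filter, with means of 0.932 FPKM in TG and 0.395 FPKM in WT iWAT, while *Cyp2s1* at 1.06 FPKM in WT iWAT was the one closest above it. *Cyp7b1*, an oxysterol 7α-hydroxylase, was under 0.75 FPKM in all mice and *Cyp7a1*, the first enzyme of bile acid synthesis in liver, was at 0.

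*Cyp26b1*, which breaks down retinoic acid, was at 3.40, 4.59 and 17.4 FPKM in TG replicates 1, 2 and 3 and at 1.31, 1.21 and 4.71 FPKM in WT replicates 1, 2 and 3. Replicate 3 was far above its group in both genotypes, and WT replicate 3 was above 2 of the TG mice. The log2 fold change of 1.32 (95% interval -0.08 to 2.71) had an adjusted p of 0.157 (limma). Of the retinoic acid genes, 9 of 10 had a row and were tested, and *Aldh1a1* had no row. Of the 9, 1 was higher and none was lower (11.6% and 7.03% of all tested rows), with a median log2 fold change of -0.24. At an unadjusted limma p under 0.05 there were 5 of the 9, and the share of all tested rows at that p was not counted. Besides the called gene, the other 4 of them had values below 0. They were *Aldh1a2* (-0.78) and *Aldh1a3* (-0.55), which make retinoic acid, and the receptor genes *Rara* (-0.29) and *Rarg* (-0.33). Their limma adjusted p lay between 0.0727 and 0.131, so these 4 are not read as a result. Such counts differed between lists. At that unadjusted p there were 6 of 6 tested macrophage markers, 4 of 6 lymphocyte markers and 0 of 6 aryl hydrocarbon receptor genes. The called gene was *Rarb*, a retinoic acid receptor gene that retinoic acid induces, at 2.68, 2.16 and 3.06 FPKM in the TG mice and 0.785, 0.899 and 1.37 FPKM in the WT mice (log2 fold change 0.85, limma adjusted p = 0.0122). *Cyp26a1* and *Cyp26c1* were at 0.06 FPKM or less.

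*Cyp20a1*, a P450 with no settled substrate, was at 10.4, 9.95 and 10.1 FPKM in TG replicates 1, 2 and 3 and at 12.9, 11.9 and 14.2 FPKM in WT replicates 1, 2 and 3. The TG mice were close together and below all WT mice. The fall was small, with a log2 fold change of -0.33 (SE 0.08, limma adjusted p = 0.0392), and the call was lost without any 1 of the 6 mice (adjusted p from 0.0516 to 0.111).

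The remaining 80 rows were under the filter and were not tested. Of these, 47 were listed at 0 in all 6 mice, among them *Cyp19a1*, the aromatase that makes estrogens, and the whole Cyp2g, Cyp2w and Cyp4x subfamilies. The steroid enzymes *Cyp11a1* and *Cyp17a1* were at 0.241 to 1.05 FPKM and at 0.128 FPKM or less. The vitamin D enzymes were low, with *Cyp2r1*, a 25-hydroxylase, at 0.923, 0.577 and 0.571 FPKM in the TG mice and 0.391, 0.447 and 0.395 FPKM in the WT mice, and *Cyp27b1* and *Cyp24a1* at 0.0974 FPKM or less. *Cyp2b10*, the standard target of the receptor CAR in liver, was at 0.659, 0.413 and 1.04 FPKM in TG and 0.309, 0.0793 and 0.247 FPKM in WT iWAT. *Cyp2ab1* was at 0.186, 0.194 and 0.341 FPKM in TG and 0.563, 0.375 and 0.708 FPKM in WT iWAT. Of the 33 rows under the filter that were above 0 in some mouse, 6 did not overlap between the genotypes, *Cyp46a1*, *Cyp2r1*, *Cyp2b10*, *Cyp17a1* and *Cyp4a14* with higher TG values and *Cyp2ab1* with lower ones. They were named after their values were seen. The share of all rows under the filter without overlap was not counted. The 6 are therefore not read as a result about the P450 rows. Values this low rest on few reads.

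The called members were set beside their start regions. RefSeq windows from 250 bases before to 50 after the start (GRCm38.p6, the assembly of mm10) were found for 18 of the 22 symbols tested and for 7 of the 9 called. There were 21 windows in all because *Cyp4f14*, in a row that was not called, has several starts with windows that share bases. Searched on both strands were GCGTG, the core bound by the aryl hydrocarbon receptor, AGGTCA, a hexamer bound by nuclear receptors, TGACG, a core of cAMP response elements, TAATTA, a core of homeodomain factors, and the TATAAA and CCAAT boxes. GCGTG was in both windows of higher members (*Cyp1a1* and *Cyp4v3*) and in 3 of 5 windows of lower members, against 2 of 14 windows of members not called and 32.4% of all 32851 windows. TGACG was in 2 of the 5 windows of lower members and in no other member window (20.8% of all windows), and AGGTCA was in 1 of the 5 and in 1 of the 14 (16.3% of all). TAATTA was in none of the 21 windows (5.29% of all). TATAAA lay 30 bases before the start of *Cyp1a1* and in 3 of the 14 windows of members not called (13.6% of all windows hold it). CCAAT was in 3 of the 5 windows of lower members and in 8 of the 14 (37.4% of all). Every *Cyp4f14* window holds CCAAT and is counted on its own, so the 14 windows are not 14 genes. The RefSeq starts of *Cyp1a1* and *Cyp4v3* lie inside the loci the table lists. A match is only the presence of these letters, and the counts are too few to set against the share of all windows. The 250 bases before the start are shown for the 4 called members with the largest fold changes that had a window, 5′ to 3′ on the gene's strand, with matches to any of the motifs in capitals. In *Cyp2j9* the GCGTG and TGACG matches overlap by 2 bases. The regions are chr8:45333164-45333413 (minus strand) for *Cyp4v3*, chr9:57697363-57697612 (plus strand) for *Cyp1a1*, chr7:27119705-27119954 (plus strand) for *Cyp2f2* and chr4:96591486-96591735 (minus strand) for *Cyp2j9*.
Cyp4v3: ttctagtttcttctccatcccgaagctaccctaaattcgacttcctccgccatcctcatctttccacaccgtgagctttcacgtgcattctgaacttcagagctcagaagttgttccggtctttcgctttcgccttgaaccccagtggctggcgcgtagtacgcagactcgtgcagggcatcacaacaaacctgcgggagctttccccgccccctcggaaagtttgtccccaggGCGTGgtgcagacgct
Cyp1a1: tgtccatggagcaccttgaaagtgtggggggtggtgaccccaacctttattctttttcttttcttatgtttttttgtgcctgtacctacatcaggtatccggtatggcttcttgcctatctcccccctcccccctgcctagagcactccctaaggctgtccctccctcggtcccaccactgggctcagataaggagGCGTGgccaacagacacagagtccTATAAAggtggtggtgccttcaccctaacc
Cyp2f2: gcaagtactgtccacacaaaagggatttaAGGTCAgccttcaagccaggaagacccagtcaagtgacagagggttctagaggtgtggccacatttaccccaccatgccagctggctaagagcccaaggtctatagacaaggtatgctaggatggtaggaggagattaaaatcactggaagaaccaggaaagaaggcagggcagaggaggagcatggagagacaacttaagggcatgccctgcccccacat
Cyp2j9: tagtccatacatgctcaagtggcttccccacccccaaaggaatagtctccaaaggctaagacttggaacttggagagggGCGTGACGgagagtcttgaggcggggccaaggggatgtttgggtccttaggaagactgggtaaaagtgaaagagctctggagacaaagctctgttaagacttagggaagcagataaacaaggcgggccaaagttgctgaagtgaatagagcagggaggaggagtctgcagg

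Genes of the proteins that feed electrons to P450 enzymes were read next. Of 10 redox partner genes, 9 had a row and were tested, and *Cyb5a* had no row. Of the 9, 3 were higher and 1 was lower (11.6% and 7.03% of all tested rows), with a median log2 fold change of 0.14. *Cyb5b*, the mitochondrial outer membrane cytochrome b5, was at 317, 262 and 231 FPKM in TG replicates 1, 2 and 3 and at 131, 160 and 121 FPKM in WT replicates 1, 2 and 3. All TG mice were far above the WT mice, with a log2 fold change of 0.97 (SE 0.16, limma adjusted p = 0.00789). *Fdxr*, the ferredoxin reductase that serves mitochondrial P450s such as that of *Cyp27a1*, rose by 0.64 on the log2 scale (SE 0.09, limma adjusted p = 0.00414), and *Cyb5r3*, a cytochrome b5 reductase, by 0.49 (limma adjusted p = 0.0322). The ferredoxin gene *Fdx1* was not called (log2 fold change 0.31, limma adjusted p = 0.241). Neither was *Fdx1l*, on a row shared with *Raver1* (-0.12, limma adjusted p = 0.399). The genotypes overlapped for both. *Por*, the electron donor of the microsomal P450s, was at 162, 160 and 169 FPKM in TG and 217, 193 and 216 FPKM in WT iWAT. Its groups did not overlap, and it fell by 0.35 on the log2 scale (SE 0.09, limma adjusted p = 0.0377). Its call was lost without any 1 of the 6 mice (adjusted p up to 0.114), and that of *Cyb5r3* without each mouse in turn except TG replicate 3 (up to 0.0984).

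Epoxide hydrolases act on the epoxides that P450 enzymes form. Of 4 genes, 3 were tested and 1 was higher, where 11.6% of all tested rows were. *Ephx1*, the microsomal enzyme, was at 66.8, 77.7 and 74.3 FPKM in the TG mice and 42.8, 43.7 and 48.8 FPKM in the WT mice, with a log2 fold change of 0.68 (SE 0.09, limma adjusted p = 0.00418) and no overlap. *Ephx2*, the soluble enzyme that hydrolyses epoxides of arachidonic acid, was at 226, 267 and 238 FPKM in TG and 259, 154 and 159 FPKM in WT iWAT, and the genotypes overlapped (limma adjusted p = 0.218).

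Of the receptors and cofactors that act on P450 genes, the aryl hydrocarbon receptor list had 6 of 7 genes tested and none called in either direction by limma, with 0 at an unadjusted p under 0.05. *Ahr* was at 1.15 to 1.93 FPKM in TG and 1.29 to 1.62 FPKM in WT iWAT. *Tiparp*, a target of the receptor, was at 21.5, 10.1 and 11.5 FPKM in TG and 8.90, 8.52 and 8.99 FPKM in WT iWAT, without overlap but with an adjusted p of 0.140. *Nqo1*, another target, had a log2 fold change of -0.35 (limma adjusted p = 0.181). Of 12 nuclear receptors, 7 were tested, and 1 was higher and 1 was lower, against 11.6% and 7.03% of all tested rows. *Ppara*, a fatty acid receptor that drives Cyp4a genes in liver, was at 27.1, 27.8 and 43.0 FPKM in TG and 6.17, 2.54 and 4.85 FPKM in WT iWAT (log2 fold change 2.63, SE 0.29, limma adjusted p = 0.00192). The Cyp4a rows were at 0.139 FPKM or less in all 6 mice. Their sum was 0.196, 0.254 and 0.184 FPKM in TG and 0.0616, 0 and 0.103 FPKM in WT iWAT, without overlap. Values this low rest on few reads, and no Cyp4a row was tested. *Rxra*, the common partner of these receptors, fell by 0.51 on the log2 scale (limma adjusted p = 0.0133). The liver receptors *Nr1i2* and *Nr1i3* were at 0.05 FPKM or less and *Hnf4a* was at 0 in all mice. Of 11 genes of steroid handling, 8 were tested and none was called by limma, with 2 at an unadjusted p under 0.05. The share of all tested rows at that unadjusted p was not counted.

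**Figure D4:**
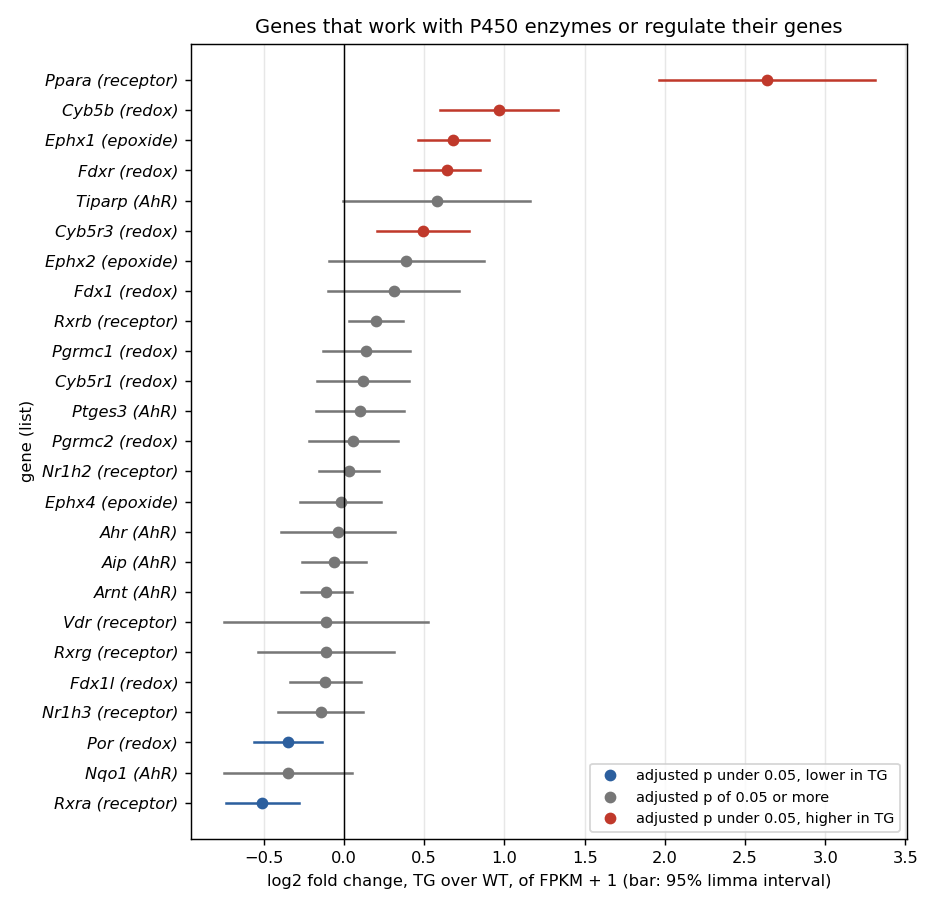
Log2 fold change of FPKM + 1, TG over WT, with 95% limma intervals (n = 3 mice per genotype) for the tested redox partners (redox), aryl hydrocarbon receptor genes (AhR), epoxide hydrolases (epoxide) and nuclear receptors (receptor). *Ppara* at 2.63 lies farthest to the right, *Cyb5b*, *Ephx1*, *Fdxr* and *Cyb5r3* are the other called rises in red, and *Por* and *Rxra* are the called falls in blue.

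Markers of other cells were read beside these results, where 11.6% of all tested rows were higher and 7.03% lower, and the part of such cells in them was not tested apart from the values given here. Hepatocyte markers were near 0 for *Apob*, *Ttr* and *Tat* (0.04 FPKM or less in all mice), and *Apoa1* was at 0.972 FPKM or less. *Alb* was at 5.82 to 9.52 FPKM in TG and 25.5 to 40.5 FPKM in WT iWAT. *Fgb* was at 0.460 to 5.06 FPKM in TG and 3.67 to 12.3 FPKM in WT iWAT, and *Serpina1c* at 1.84 to 3.54 FPKM and 1.87 to 6.09 FPKM, both with overlap. Of the 3 tested, 1 was lower, *Alb*. The summed hepatocyte level was 13.3 to 16.5 FPKM in TG and 39.7 to 55.3 FPKM in WT iWAT. Of 6 brown adipocyte markers 5 were higher, and of 6 white adipocyte markers 2 were lower. Of 6 endothelial markers 2 were higher, and of 6 fibroblast and progenitor markers 1 was lower. None of 8 epithelial and none of 5 tested skeletal muscle markers was called by limma, with 1 and 0 at an unadjusted p under 0.05, a limit at which all tested rows were not counted. The summed muscle level ran from 203 to 693 FPKM in TG and from 203 to 308 FPKM in WT iWAT, highest in TG replicate 2. Much of it was the row that *Tnnt3* shares with *Lsp1*, at 163 to 333 FPKM in TG and 200 to 254 FPKM in WT iWAT, so the sum is not a level of muscle alone. *Acta1* ran from 20.6 to 187 FPKM in TG and from 2.36 to 35.5 FPKM in WT iWAT. *Ckm* ran from 14.0 to 119 FPKM and from 0.0657 to 23.0 FPKM. Of 6 steroidogenic gland markers 2 were tested and 1 was lower, *Mc2r*, while *Star* and *Nr5a1* were at 0.356 FPKM or less and *Hsd3b1* at 0.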

How the data were processed

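Libraries were made from iWAT RNA of 3 TG and 3 WT mice with the TruSeq V2 kit and sequenced as single-end reads of 100 bases. Per the labels and the study's methods, the authors mapped reads to mm10 with TopHat2 (2.0.9, Bowtie2 2.1.0) and quantified genes with Cufflinks (2.2.1). The authors deposited 1 FPKM value per gene row and mouse. The annotation and options are not given in the sources used here.

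Here, log2(FPKM + 1) was compared between genotypes by limma (3.58.1, under R 4.3.3) with a variance prior that follows the level, in two-sided tests without covariates, for the 11692 rows with a mean FPKM over 1 in a genotype, with Benjamini-Hochberg adjustment over them. The script was tested on simulated data. An exact permutation test of 1 gene cannot go below p = 0.1 with 3 mice against 3, the value at every row without overlap. Fold changes on this scale understate the change of low genes. Loci are given from 1, by adding 1 to the listed starts. Overlapping genes were read from GENCODE M21, and promoter windows from RefSeq. Every tested member is named, and the values of each mouse are given for those called, without overlap or highest in level. The P450 rows, gene lists and tests were chosen with earlier results of these data known. A list gene on several rows was taken from the row with the highest mean. Alternatives were another pseudocount, other filters, scalings, variance priors and call rules, sample weights, a replicate block and each mouse left out. Figures were drawn with matplotlib 3.10.9.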

Additional observations from a re-analysis of the deposited data

How the results depend on the processing

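Of 333 values of single P450 rows under 16 alternatives, 271 kept their sign and side of the threshold, 49 lost a call, 5 gained one and 8 changed sign, all 8 in rows that were not called. Only the 9 called rows can lose a call, so the 333 values understate how often calls were lost. *Cyp4v3* and *Cyp2f2* lost it under 0 of 16 alternatives and *Cyp20a1* under 10. With an adjusted p under 0.01, 1 P450 row was higher and 1 lower (569 and 199 of all rows). With an adjusted p under 0.05 and at least a 2-fold ratio of means, 2 were higher and 1 lower (413 and 204 of all rows). With no expression filter, which tests more rows, 4 were higher and 2 lower (1151 and 638 of all rows, against 1352 and 822). These 4 were not the same 4 as in the main test. *Cyp2u1* lost its call there (limma adjusted p = 0.0824), and a row under the filter, not read as a result, was counted instead. Without 1 mouse, 2 to 4 P450 rows were higher and 1 to 4 lower, and 780 to 1295 of all rows were higher and 329 to 906 lower. With quantile normalization the log2 fold change of *Cyp3a41a* was -0.13. Without 1 mouse it ran from -0.22 to 0.52, that of *Cyp3a57* from -0.18 to 0.32, of *Cyp39a1* from -0.0511 to 0.147 and of *Cyp4b1* from -0.384 to 0.0596. *Cyp1a1* was not tested when the filter used the mean of all mice. With the replicate number as a block, 3 P450 rows were higher and 3 lower (1230 and 656 of all rows). *Cyp26b1* (limma adjusted p = 0.0144) and *Cyp4f17* (0.0470) gained a call, and *Cyp1a1*, *Cyp2u1*, *Cyp4f16*, *Cyp4f18* and *Cyp20a1* lost it. The numbers name different mice, and same-numbered mice deviated together with r of 0.01, 0.03 and 0.07 across genes. Mice with different numbers had r from -0.19 to 0.13. With deviations taken from means of 3 mice, these values cannot tell whether the numbers pair the samples, and the main test took them as unpaired. FPKM gives no absolute depth, so no interval was set on low values.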

Other observations

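The P450 superfamily has 2 prostanoid synthases whose symbols lack the Cyp prefix, and both were read after the P450 rows. *Ptgis*, the prostacyclin synthase of vessel walls, was at 6.81, 7.05 and 5.54 FPKM in TG replicates 1, 2 and 3 and at 5.24, 3.56 and 3.67 FPKM in WT replicates 1, 2 and 3, with a log2 fold change of 0.54 (SE 0.15, limma adjusted p = 0.0460). *Tbxas1*, the thromboxane synthase of platelets and macrophages, was at 2.71, 3.43 and 2.71 FPKM against 5.18, 3.94 and 5.31 FPKM, with a log2 fold change of -0.55 (SE 0.13, limma adjusted p = 0.0301). The groups of neither gene overlapped. The call of *Ptgis* was lost without each mouse in turn except WT replicate 1 (adjusted p up to 0.138), and that of *Tbxas1* without each except TG replicate 2 and WT replicate 2 (up to 0.10). *Cyp51*, the sterol 14α-demethylase left out by the rule, had 12.2 ± 1.09 FPKM in TG and 13.1 ± 2.86 FPKM in WT iWAT (SD, n = 3 each, limma adjusted p = 0.729).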
